A study of Rattus norvegicus with 12 samples.

Results

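NRF2 antioxidant genes were followed across all 12 RNA-seq libraries of the study. The set has 10 genes, taken by symbol: Nfe2l2, which encodes NRF2 itself, and 9 genes that NRF2 is known to induce. Of these 10 genes, 9 matched a row among the 32883 genes of the count table, and all 9 passed the filter on low counts, which kept 14063 genes. Srxn1 (sulfiredoxin) matched no row by symbol and was not analysed here. The set was selected on the level of Nqo1, which had been seen to be lower in the K815Q libraries than in WT, and that difference is described below without a test.

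The cells were primary ventricular cardiomyocytes of newborn rats, cultured for 2 days after an adenovirus had been added. The virus carried LacZ as the control cargo, wild-type human KAT6A (WT), KAT6A with arginine in place of a lysine (K815R, resistant to acetylation at that residue), or KAT6A with glutamine there (K815Q, a mimic of the acetylated form). KAT6A is a histone acetyltransferase, and the cells of all groups kept their own Kat6a gene. Each group had 3 libraries, all made from poly(A) RNA. The labels do not say whether the 3 libraries of a group came from separate cultures, so the tests measure only the spread between these libraries.

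NRF2 is a transcription factor that is held at low levels by the adaptor KEAP1, which presents it for ubiquitination. Oxidants and electrophiles modify KEAP1, and NRF2 then accumulates and binds antioxidant response elements together with small MAF proteins, where it competes with the repressor BACH1. Its targets supply cystine and glutathione, recycle thioredoxin, reduce quinones and degrade heme. NRF2 is controlled largely at the protein level, which these data do not measure.

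Gene counts summed to 19102048 in the shallowest library and 25451686 in the deepest, and the 9 measured genes had between 162 and 6443 counts in any library. Levels are given as CPM, counts scaled to a common library size with TMM factors, and they were compared between groups and not between genes, since the table holds no gene lengths. In the check of the delivered gene, Kat6a stood at 82.0 to 121.6 CPM over the WT and K815R libraries, at 45.2 to 53.6 CPM in LacZ, and at 43.4 to 49.97 CPM in the K815Q libraries. The K815Q libraries thus lay within or below the LacZ range, which goes against their label, and they are called the labelled-K815Q libraries. Prkaa2, the AMPK alpha 2 subunit, named here after its values were seen, also separated the groups: it stood at 435.1 to 633.0 CPM in WT, 54.8 to 72.7 in LacZ, 78.1 to 95.4 in K815R and 1134 to 1232 in the labelled-K815Q libraries. The part of these gaps in the results below was not tested. Of 12 cardiomyocyte markers, 11 were in the table, and none was at 0 in a group. Their sum stood at 57366 to 59524 CPM in WT and 55279 to 58859 in LacZ. It stood at 59794 to 61696 CPM in K815R, above every other library, and at 56592 to 59732 in the labelled-K815Q libraries. Summed fibroblast markers (12 genes) stood at 13380 to 14441 CPM in WT and 13426 to 13888 in K815R, both below the 14459 to 15259 of LacZ. In the labelled-K815Q libraries they stood at 14122 to 15278 CPM. Summed smooth muscle and pericyte markers (12 genes) stood at 7449 to 7704 CPM in WT and 7578 to 7992 in LacZ. These stood at 7896 to 8323 CPM in K815R and 7454 to 7733 in the labelled-K815Q libraries. Summed macrophage and leukocyte markers (12 genes) stood at 103.0 to 110.0 CPM in WT, 79.6 to 103.1 in LacZ, 105.2 to 112.6 in K815R and 110.5 to 116.8 in the labelled-K815Q libraries. Endothelial markers (11 of 12 in the table) summed to 196 to 281 CPM, with Robo4 at 0 in LacZ, WT and K815R. The part of these cell types in the results below was not tested. In such bulk RNA, fewer cells that express a gene and less RNA per cell cannot be told apart.

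Nqo1 and Slc7a11 stood apart in WT. In both, all 3 WT libraries lay above all 9 other libraries, while K815R, the labelled-K815Q libraries and LacZ lay close together. Gsr showed the opposite order, with the 3 WT libraries below the 9 others. Over all 14063 genes, 1.92% had the WT libraries above all others and 1.95% had them below. Nqo1 was chosen through its WT and labelled-K815Q libraries, so nothing is read from its place beside that share.

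**Figure D1:**
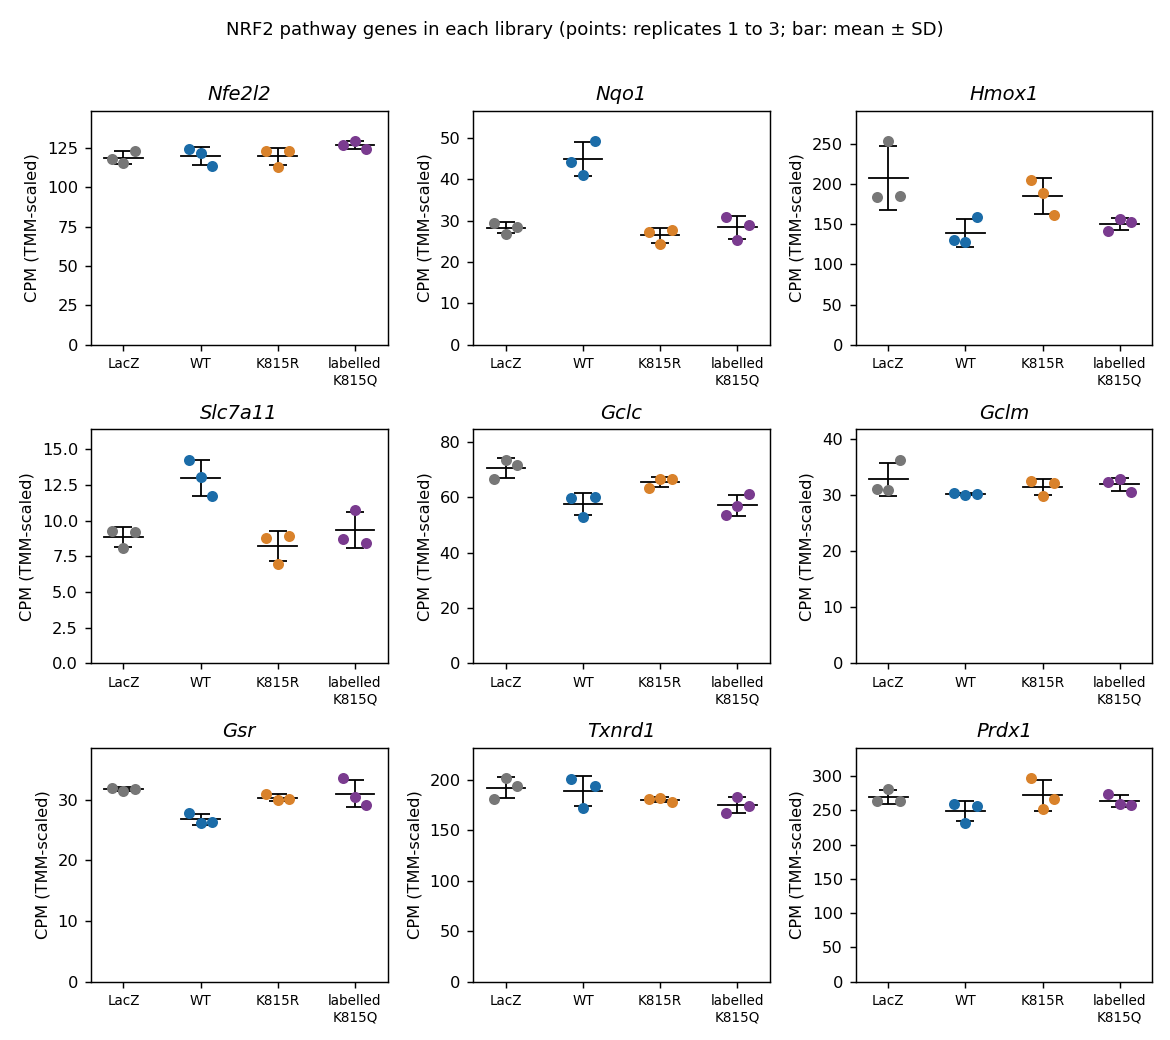
Levels of the 9 measured NRF2 pathway genes in TMM-scaled CPM (y axis, from 0) in each of the 12 libraries, by group (x axis); points are replicates and bars are the mean ± SD of 3. The WT points lie above all others for Nqo1 (41.0 to 49.1 CPM) and Slc7a11 (11.7 to 14.2 CPM) and below all others for Gsr (26.2 to 27.8 CPM).

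No difference in Nfe2l2, the regulator itself, passed the test. Nfe2l2 (ENSRNOG00000001548) was at 124.7, 121.7 and 113.8 CPM in WT, 118.1, 115.3 and 123.4 in LacZ, 123.1, 113.3 and 123.0 in K815R, and 126.9, 129.3 and 124.3 in the labelled-K815Q libraries. The LacZ, WT and K815R ranges overlapped, and the labelled-K815Q libraries lay just above LacZ and K815R. Against LacZ its log2 fold change was 0.01 in WT (95% interval -0.09 to 0.12) and 0.0093 in K815R (-0.10 to 0.11). In the labelled-K815Q libraries it was 0.09 (-0.01 to 0.20), with an edgeR adjusted p of 0.275.

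Nqo1 encodes a quinone reductase that moves 2 electrons at once and so avoids semiquinone radicals, and it is a widely used readout of NRF2 activity. Nqo1 (ENSRNOG00000012772) was at 44.2, 41.0 and 49.1 CPM in WT. It was at 29.5, 26.8 and 28.6 CPM in LacZ, 27.3, 24.4 and 27.6 in K815R, and 30.9, 25.4 and 28.9 in the labelled-K815Q libraries. The WT libraries did not overlap any other group, whereas the other groups overlapped each other. The difference that singled the gene out, the labelled-K815Q libraries against WT, was a log2 fold change of -0.66 (SE 0.0786), or -36.7%. The same WT libraries were 58.4% above LacZ (log2 fold change 0.66, SE 0.0774), and K815R differed from WT by -41.1% (-0.76, SE 0.0783). These values share the WT libraries with the difference that chose the gene, so no test is given for them either. Leaving out any single library moved them to between 0.59 and 0.72 for WT against LacZ and between -0.82 and -0.69 for K815R against WT. The comparison that uses none of the libraries behind that choice is K815R against LacZ, with a log2 fold change of -0.10 (SE 0.0798, 95% interval -0.27 to 0.06) and an edgeR adjusted p of 0.638. Nqo1 in the labelled-K815Q libraries lay at the LacZ level (0.0049, 95% interval -0.16 to 0.17).

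Slc7a11 encodes the transport subunit of the cystine-glutamate exchanger, which imports the cystine that glutathione synthesis needs. It is known as a target of NRF2 and also of ATF4. Slc7a11 (ENSRNOG00000010210) was at 14.2, 13.0 and 11.7 CPM in WT and at 9.30, 8.07 and 9.18 CPM in LacZ. In K815R it was at 8.76, 6.98 and 8.90 CPM, and in the labelled-K815Q libraries at 8.73, 10.8 and 8.44 CPM. All WT libraries exceeded the highest of the others, which was replicate 2 of the labelled-K815Q libraries. Slc7a11 was 46.6% higher in WT than in LacZ (log2 fold change 0.55, SE 0.112), with an edgeR adjusted p of 0.00392. It fell by 37.1% from WT to K815R (-0.67, SE 0.114), with an edgeR adjusted p of 0.00248. Both differences passed the threshold in all 12 leave-one-library-out fits. Against LacZ, neither K815R (-0.12, 95% interval -0.36 to 0.13) nor the labelled-K815Q libraries (0.07, -0.17 to 0.32) passed the test. The step from WT to the labelled-K815Q libraries was -0.48 (SE 0.114), given as a description.

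Gclc had another order of groups, low in WT and in the labelled-K815Q libraries. Gclc, the catalytic subunit of glutamate-cysteine ligase, performs the rate-limiting step of that synthesis, and Gclm, the modifier subunit, raises its efficiency. Gclc (ENSRNOG00000006302) was at 59.7, 52.8 and 60.02 CPM in WT, 66.7, 73.5 and 71.6 in LacZ, 63.4, 66.5 and 66.7 in K815R, and 53.6, 56.7 and 61.2 in the labelled-K815Q libraries. WT and the labelled-K815Q libraries lay below every LacZ and K815R library. Gclc fell by 0.29 in WT against LacZ (log2 fold change, SE 0.0611), with an edgeR adjusted p of 0.00471. It fell by 0.30 in the labelled-K815Q libraries against LacZ (SE 0.0613), with an edgeR adjusted p of 0.00361. The second difference held in all 12 leave-one-library-out fits. The WT difference held in 11, and without WT replicate 2 it was -0.24, with an edgeR adjusted p of 0.0508. K815R did not pass against LacZ (-0.11, 95% interval -0.23 to 0.02). Gclc in K815R was 0.20 above the labelled-K815Q libraries on the log2 scale and 0.19 above WT, with no overlap between the groups, and neither passed the adjusted threshold (edgeR adjusted p 0.187 and 0.131).

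The modifier subunit did not follow the catalytic one past the threshold. Gclm (ENSRNOG00000013409) was at 30.5, 30.1 and 30.2 CPM in WT, 31.1, 31.0 and 36.3 in LacZ, 32.5, 29.8 and 32.1 in K815R, and 32.3, 32.9 and 30.6 in the labelled-K815Q libraries. LacZ replicate 3 was the highest of all 12 libraries. The log2 fold changes of Gclm against LacZ ran from -0.12 in WT to -0.04 in the labelled-K815Q libraries, and the lowest edgeR adjusted p of the 3 was 0.373. Without LacZ replicate 3 the sign turned in K815R (0.02) and in the labelled-K815Q libraries (0.04).

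Gsr encodes glutathione reductase, which regenerates reduced glutathione with NADPH. Gsr (ENSRNOG00000014915) was at 27.8, 26.2 and 26.3 CPM in WT and at 32.0, 31.4 and 31.8 CPM in LacZ. It was at 30.9, 29.9 and 30.1 CPM in K815R and at 33.5, 30.4 and 29.1 CPM in the labelled-K815Q libraries. Gsr fell by 0.25 in WT against LacZ (log2 fold change, SE 0.0640, or -15.6%), with an edgeR adjusted p of 0.0240. This call was kept in 7 of 12 leave-one-library-out fits. It was lost without LacZ replicate 1 (-0.24), LacZ replicate 2 (-0.26), LacZ replicate 3 (-0.25), WT replicate 2 (-0.23) and WT replicate 3 (-0.23), with edgeR adjusted p of 0.0651, 0.0663, 0.0606, 0.107 and 0.0844. K815R (-0.07) and the labelled-K815Q libraries (-0.03) did not pass against LacZ, and K815R against WT did not pass either (0.18, edgeR adjusted p 0.179).

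Hmox1 encodes the inducible heme oxygenase, which opens heme to biliverdin, carbon monoxide and iron. Besides NRF2, it is controlled by BACH1. Hmox1 (ENSRNOG00000014117) was at 184, 253 and 186 CPM in LacZ and at 131, 127 and 159 CPM in WT. It was at 205, 189 and 161 CPM in K815R and at 142, 157 and 153 CPM in the labelled-K815Q libraries. Every WT library and every library labelled K815Q lay below every LacZ library, while K815R overlapped LacZ. LacZ replicate 2 was well above the other control libraries. For Hmox1 the log2 fold change against LacZ was -0.58 in WT (SE 0.147) and -0.46 in the labelled-K815Q libraries (SE 0.147). Neither passed in edgeR (adjusted p 0.0600 and 0.0932), and both passed with DESeq2 (adjusted p 0.00502 and 0.0330). Over all alternatives the edgeR adjusted p for WT ran from 0.0499 (without K815R replicate 3) to 0.195 (without WT replicate 2). Without LacZ replicate 2 the values were -0.42 in WT and -0.30 in the labelled-K815Q libraries, and the value in K815R went from -0.17 to 0.0018. Hmox1 in K815R was 33.2% above WT (log2 fold change 0.41, SE 0.147), with no overlap between the groups and an edgeR adjusted p of 0.243. Without LacZ replicate 2, which also enters the estimate of the spread, this adjusted p was 0.0408.

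Txnrd1 encodes cytosolic thioredoxin reductase, and Prdx1 encodes a peroxiredoxin that removes hydrogen peroxide with electrons from thioredoxin. Txnrd1 (ENSRNOG00000009088) was at 200, 172 and 193 CPM in WT, 181, 201 and 194 in LacZ, 180, 182 and 178 in K815R, and 167, 183 and 174 in the labelled-K815Q libraries. Its largest log2 fold change against LacZ was -0.14, in the labelled-K815Q libraries (95% interval -0.25 to -0.02, edgeR adjusted p 0.140). Prdx1 (ENSRNOG00000017194) was at 260, 232 and 256 CPM in WT, 264, 282 and 264 in LacZ, 297, 252 and 266 in K815R, and 275, 260 and 259 in the labelled-K815Q libraries. The WT libraries were below every LacZ library, by a log2 fold change of -0.11 (95% interval -0.23 to 0.01), with an edgeR adjusted p of 0.299. In neither gene did any comparison with LacZ pass, and the group ranges overlapped in all but that of Prdx1 in WT.

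**Figure D2:**
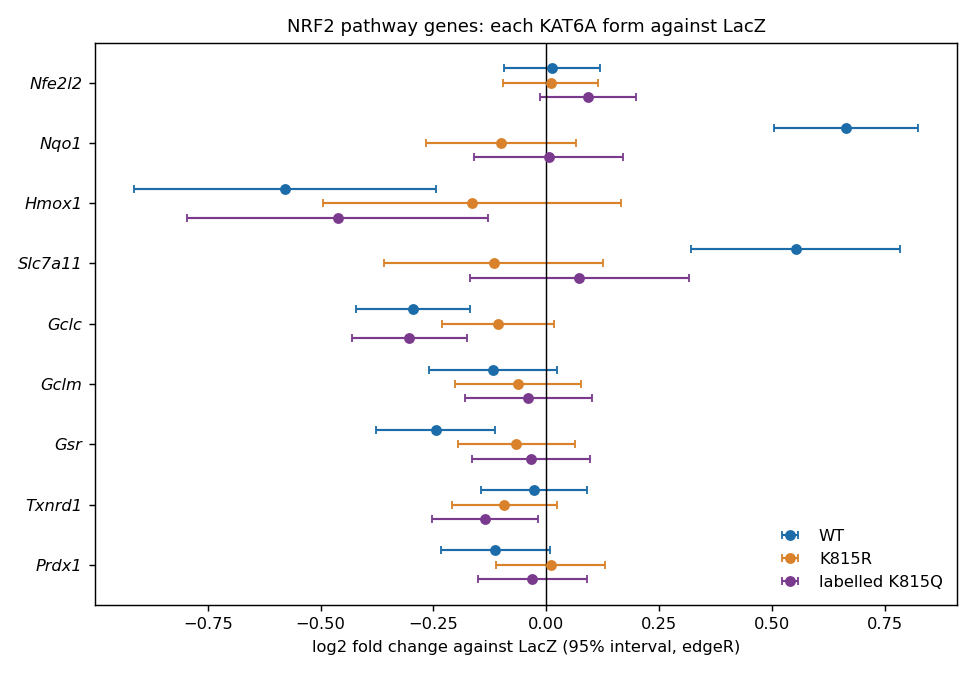
Log2 fold change against LacZ (x axis) of each measured gene (y axis) in WT, K815R and the labelled-K815Q libraries; points are edgeR estimates and bars are 95% intervals. In WT, the points of Nqo1 (0.66) and Slc7a11 (0.55) lie farthest to the right. Hmox1, which did not pass in edgeR, lies farthest to the left in WT (-0.58) and in the labelled-K815Q libraries (-0.46). Gclc, which passed in both, lies less far to the left (-0.29 and -0.30).

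Counted over the set, WT against LacZ held the most calls. Of the 8 measured genes other than Nqo1, 1 rose (Slc7a11), 2 fell (Gclc and Gsr) and 5 did not pass at an adjusted p under 0.05 in edgeR's quasi-likelihood test. Of all genes, 1.95% were called higher and 3.39% lower, or 5.34% in either direction. Without WT replicate 2 this count went from 3 to 1. In the labelled-K815Q libraries against LacZ, 1 of these 8 genes was called, Gclc, against 7.85% of all genes. In K815R against LacZ, 0 of 9 genes were called by edgeR, against 2.47% of all genes, and 0 had an unadjusted p under 0.05 and 0 were called by DESeq2. K815R against WT gave 1 call among the 8, Slc7a11, against 2.20% of all genes. K815R against the labelled-K815Q libraries gave 0 calls among 8 by edgeR and 0 by DESeq2, against 0.363% of all genes, with 1 gene (Gclc) at an unadjusted p under 0.05. In the comparison that chose the set, the labelled-K815Q libraries against WT, 1.07% of all genes were called and nothing is read from the set.

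The groups of WT and LacZ did not overlap in 6 of the 8 genes other than Nqo1, 1 higher and 5 lower in WT, where 12.3% of all genes had such a gap on the higher side and 12.3% on the lower. The median log2 fold change of the 9 genes was -0.11 in WT, -0.09 in K815R and -0.03 in the labelled-K815Q libraries against LacZ, and that of all genes was 0.01, 0.0034 and 0.01. These 3 comparisons share the LacZ libraries. Among the 8 genes other than Nqo1, WT values against LacZ had both signs, from -0.58 (Hmox1) to 0.55 (Slc7a11).

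The stretches before the start sites show how the measured genes differ in the letters of the antioxidant response element. Its core was searched as TGACNNNGC on both strands, in RefSeq windows of assembly GRCr8 that run from 250 bases before an annotated start to 50 bases after it. Windows were given for 8 of the 10 genes (9 windows, with 2 starts for Txnrd1), and none was used for Hmox1 or Gsr. For Nfe2l2, Slc7a11, Gclc and Txnrd1 the annotated start of a window lies inside the gene's RefSeq span. The core was found in 4 of these genes: in Gclm at -172 to -164, in Txnrd1 at -78 to -70, in Prdx1 at -135 to -127, and in Nfe2l2 at 39 to 47, counted from the start. Of all 33469 windows, 12.1% held the core, and of all 27457 genes with a window, 13.1% had it. In Gclm (GCTTAGTCA) and Txnrd1 (GCTTTGTCA) the core, read on the other strand, is followed by A, a form that 3% of all windows and 3.21% of these genes held. Neither Nqo1 nor Slc7a11, the genes that were high in WT, held the core in its window. That says only that these letters are not there, and elements farther away were not examined.

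The stretch before the start is shown for Nqo1, the gene the set was built around, and for 2 genes with the core whose levels did not pass the test, Gclm and Prdx1. They lie at chr19:52220268-52220517 (minus strand), chr2:213031885-213032134 (plus strand) and chr5:135383656-135383905 (plus strand) of GRCr8. Each is written in the direction of the gene and ends at the base before the start. Capitals mark the antioxidant response element core (9 bases) and the xenobiotic response element core GCGTG (5 bases, CACGC on the other strand), to which the aryl hydrocarbon receptor binds.
Nqo1: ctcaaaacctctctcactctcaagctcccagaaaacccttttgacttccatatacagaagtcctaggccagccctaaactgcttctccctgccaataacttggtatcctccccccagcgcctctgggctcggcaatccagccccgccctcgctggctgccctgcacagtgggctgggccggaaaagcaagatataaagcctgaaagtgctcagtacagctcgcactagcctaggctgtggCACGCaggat
Gclm: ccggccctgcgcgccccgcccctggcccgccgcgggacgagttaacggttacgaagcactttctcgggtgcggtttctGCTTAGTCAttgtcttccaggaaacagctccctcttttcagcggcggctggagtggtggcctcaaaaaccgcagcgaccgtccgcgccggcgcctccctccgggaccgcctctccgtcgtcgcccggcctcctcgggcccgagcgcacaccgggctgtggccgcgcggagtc
Prdx1: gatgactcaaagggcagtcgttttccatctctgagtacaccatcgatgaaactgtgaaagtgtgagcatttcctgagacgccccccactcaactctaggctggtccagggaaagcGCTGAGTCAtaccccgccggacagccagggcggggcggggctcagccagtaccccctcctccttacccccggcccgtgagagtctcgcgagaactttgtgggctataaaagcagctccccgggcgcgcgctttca
In Nqo1 the xenobiotic core lies at -10 to -6, and 29.7% of all windows held such a core. It was not particular to Nqo1, since the windows of Gclc, Txnrd1 and Srxn1 held it too. The Prdx1 core overlaps a match to the AP-1 element TGANTCA at -133 to -127, a motif that 7.33% of all windows held.

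**Figure D3:**
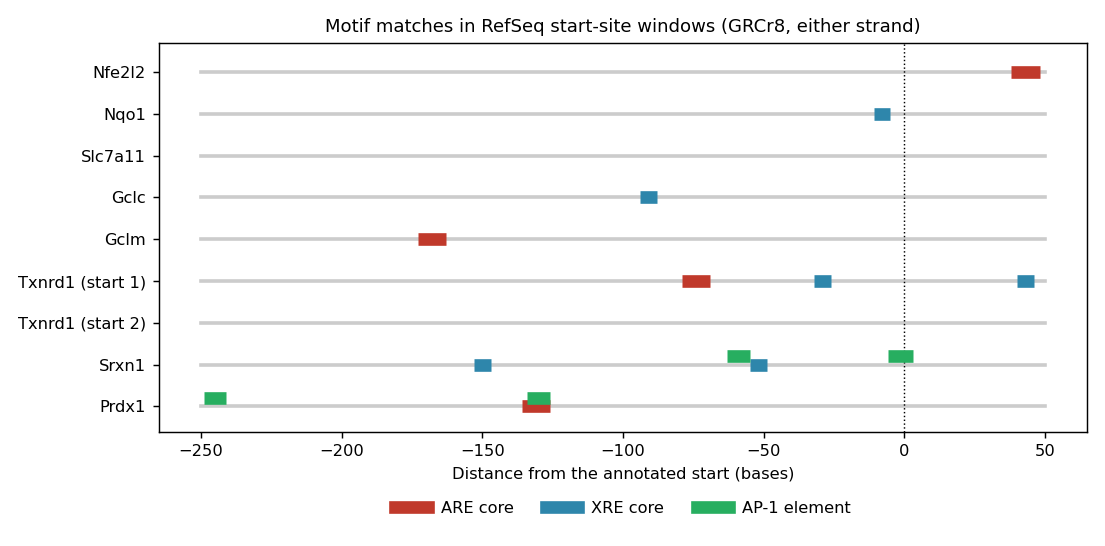
Matches to the antioxidant response element core (ARE), the xenobiotic response element core (XRE) and the AP-1 element in the 9 RefSeq windows of 8 genes, by distance from the annotated start in bases (x axis); grey lines are the windows. ARE matches appear in Nfe2l2, Gclm, Txnrd1 and Prdx1, and none in the windows of Nqo1, Slc7a11, Gclc and Srxn1.

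Genes that act on NRF2 or on its partners were compared next, from lists that leave out the members. Among 18 tested regulators, 1 fell in WT (5.56%), 1 in K815R (5.56%) and 2 in the labelled-K815Q libraries (11.1%) against LacZ, by edgeR's quasi-likelihood test. Of all genes, 5.34%, 2.47% and 7.85% were called in these 3 comparisons, and the same shares apply beside the lists below. The gene that fell in all 3 was Trim21, a ubiquitin ligase that is also interferon-inducible, at 23.8 to 27.8 CPM in LacZ and 8.58 to 14.9 CPM over the 9 other libraries (log2 fold changes -1.18, -0.999 and -1.32). The other was Gsk3b, a kinase that marks NRF2 for degradation (-0.26), which was lost in 4 of 12 fits: without LacZ replicate 2 (-0.27), LacZ replicate 3 (-0.19), K815Q replicate 1 (-0.20) and K815Q replicate 3 (-0.26). Keap1, the NRF2 adaptor, was at 54.2 ± 4.12 CPM in WT, 55.3 ± 2.00 in LacZ, 50.2 ± 1.76 in K815R and 56.7 ± 1.94 in the labelled-K815Q libraries (mean ± SD, n = 3), and none of the 3 differences from LacZ passed. Bach1, the competing repressor, was at 6.95 ± 0.291, 7.73 ± 0.886, 7.38 ± 1.07 and 6.51 ± 1.08 CPM in the same order, and did not pass either. Mafg, a small MAF partner, had log2 fold changes from -0.18 to -0.04, and Sqstm1, an autophagy receptor that binds KEAP1, from -0.06 to 0.0023 against LacZ, and neither passed.

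The enzymes around glutathione, thioredoxin and NADPH gave few calls. Of 32 tested genes of glutathione synthesis and use, 1 rose in WT (Ggt1) and 1 fell in K815R (Mgst1). Mgst1, a membrane-bound glutathione transferase, went from 54.2 ± 2.00 CPM in LacZ to 43.1 ± 3.15 in K815R (SD, n = 3; log2 fold change -0.33, edgeR adjusted p 0.00364). Ggt1 had 8 to 37 counts per library over the LacZ and WT libraries, and its call was not made by DESeq2 (adjusted p 0.101). It was also lost without LacZ replicate 1, 2 or 3, or WT replicate 2 or 3 (log2 fold changes 0.85 to 1.35, against 1.17 with all libraries). In the labelled-K815Q libraries, 0 of 32 were called by edgeR and 0 by DESeq2, with 7 at an unadjusted p under 0.05. Of 17 genes of NADPH supply, 1 fell in each of the 3 comparisons with LacZ, and it was Me1, the cytosolic malic enzyme and a known NRF2 target. Me1 was at 125 to 128 CPM in WT, 150 to 160 in LacZ, 132 to 139 in K815R and 133 to 144 in the labelled-K815Q libraries, so that none of the 9 other libraries reached the LacZ range. Its log2 fold changes were -0.29, -0.20 and -0.17 (edgeR adjusted p 5.53e-04, 0.0219 and 0.0303). The WT call held in all 12 leave-one-library-out fits, and the others in 8 of 12 each. The K815R call was lost without LacZ replicate 2 (-0.20), LacZ replicate 3 (-0.18), K815R replicate 2 (-0.18) or K815R replicate 3 (-0.19). That of the labelled-K815Q libraries was lost without LacZ replicate 2 (-0.17), LacZ replicate 3 (-0.15), K815Q replicate 1 (-0.15) or K815Q replicate 2 (-0.17).

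Among 26 genes of quinone, aldehyde and xenobiotic metabolism, 1 fell in WT (3.85%) and 4 in the labelled-K815Q libraries (15.4%) against LacZ. The shares of all genes were 5.34% and 7.85%. Ephx1, a microsomal epoxide hydrolase, was in both counts, at 16.7 ± 1.28 CPM in WT, 22.2 ± 0.742 in LacZ and 17.9 ± 2.09 in the labelled-K815Q libraries (SD, n = 3; log2 fold changes -0.41 and -0.31). The WT call of Ephx1 held in all 12 leave-one-library-out fits. The other call was lost without LacZ replicate 2 (-0.30), K815Q replicate 1 (-0.30) or K815Q replicate 2 (-0.24). Akr1b8, an aldo-keto reductase, was also highest in WT: 20.7 ± 0.926 CPM in WT, 17.3 ± 1.19 in LacZ, 16.2 ± 1.52 in K815R and 14.2 ± 1.14 in the labelled-K815Q libraries (SD, n = 3), although WT against LacZ did not pass (log2 fold change 0.26, edgeR adjusted p 0.0712). The WT libraries stood at 19.8 to 21.7 CPM, against 12.9 to 18.2 CPM elsewhere. Akr1b8 fell from WT to K815R (-0.36, edgeR adjusted p 0.0275). That call was lost without any 1 of the WT libraries or K815R replicate 1 or 3 (-0.385 to -0.28). Its call in the labelled-K815Q libraries against LacZ (-0.28, adjusted p 0.0480 by edgeR) was made neither by DESeq2 (adjusted p 0.0610) nor when the other 6 libraries were left out of the fit (adjusted p 0.0570), and was lost without any WT library, LacZ replicate 1 or 2, K815R replicate 1, or K815Q replicate 1 or 3 (-0.30 to -0.22). Abcc1, an export pump for glutathione conjugates, named after its values were seen, fell in the labelled-K815Q libraries from 11.0 ± 1.08 CPM in LacZ to 8.05 ± 0.541 (SD, n = 3; log2 fold change -0.46, edgeR adjusted p 0.0130), a call lost without LacZ replicate 3 (-0.38) or K815Q replicate 1 (-0.40). Epha2, a receptor tyrosine kinase, also fell in the labelled-K815Q libraries (-0.26), a call lost without LacZ replicate 2 (-0.23), LacZ replicate 3 (-0.25), K815Q replicate 1 (-0.20) or K815Q replicate 3 (-0.27).

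The other lists gave few calls. Of 18 thioredoxin and peroxiredoxin genes, 0 were called in WT or K815R by edgeR, with 4 and 2 at an unadjusted p under 0.05 and 1 and 0 called by DESeq2, and 1 fell in the labelled-K815Q libraries (Sesn3, a stress-induced sestrin, -0.49). The Sesn3 call was lost without a filter and without LacZ replicate 2 or 3, WT replicate 1, K815R replicate 1 or any library labelled K815Q (-0.57 to -0.41). Of 18 heme and iron genes, 0 were called in WT or K815R by edgeR or DESeq2, with 4 and 4 at an unadjusted p under 0.05, and 1 fell in the labelled-K815Q libraries (Ireb2, an iron-responsive RNA-binding protein, -0.36). The Ireb2 call was lost without LacZ replicate 3 (-0.31) and without K815Q replicate 1 (-0.26). Of 14 genes that make or remove superoxide and peroxide, 1 rose (Ncf1, a phagocyte NADPH oxidase subunit, 0.32) and 1 fell (Sod2, the mitochondrial superoxide dismutase, -0.23) in WT. Ncf1 also rose in the labelled-K815Q libraries (0.31), a call lost without LacZ replicate 2 (0.23), K815Q replicate 1 (0.28) or K815Q replicate 3 (0.30). Summed leukocyte markers were at 103.0 to 110.0 CPM in WT, at 110.5 to 116.8 in the labelled-K815Q libraries and at 79.6 to 103.1 in LacZ, and their part in the Ncf1 values was not tested. In WT, both calls were lost without LacZ replicate 2 (Ncf1 0.23, Sod2 -0.16), Sod2 was also lost without WT replicate 2 (-0.22) and Ncf1 without WT replicate 3 (0.29).

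Over all lists, 168 genes other than the members were tested. Of these, 4 rose and 6 fell in WT (5.95%), 0 rose and 4 fell in K815R (2.38%), and 5 rose and 10 fell in the labelled-K815Q libraries (8.93%), near the 5.34%, 2.47% and 7.85% of all genes. Without LacZ replicate 2 the WT count of 10 was 5. The count of 15 was 4 without K815Q replicate 1, 7 without LacZ replicate 2 and 9 without LacZ replicate 3. In single lists, of 9 to 32 tested genes, 0% to 15.8% were called in WT and 0% to 5.88% in K815R. In the labelled-K815Q libraries the share ran from 0% to 21.1%.

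**Figure D4:**
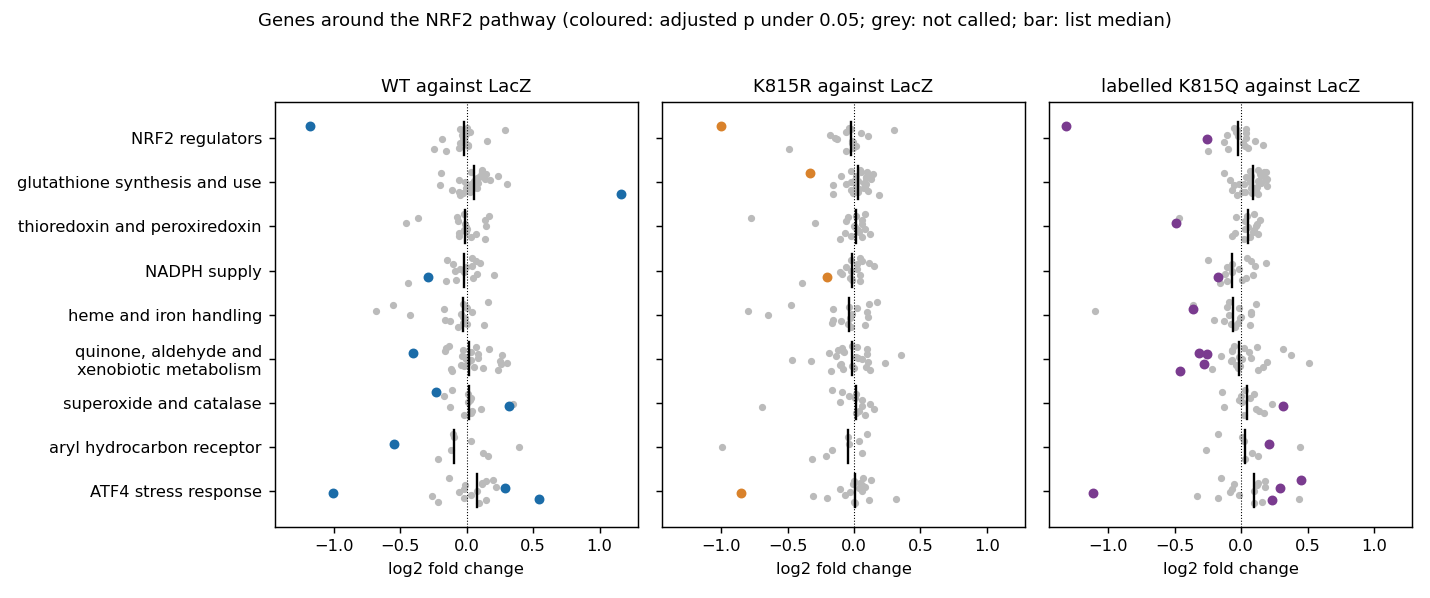
Log2 fold change against LacZ (x axis) of the tested genes of 9 lists around the NRF2 pathway (y axis), without the members, in WT, K815R and the labelled-K815Q libraries; coloured points passed an adjusted p under 0.05, grey points did not, and bars are list medians. The list medians lie between -0.09 and 0.10, and the points farthest left among the called genes are Trim21 (-1.18, -0.999 and -1.32).

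Nqo1 is also a known target of the aryl hydrocarbon receptor, and Cyp1b1 is another. Of 9 tested genes tied to that receptor, 1 fell in WT and 1 rose in the labelled-K815Q libraries against LacZ, and both times it was Cyp1b1. That is 11.1% each time, against 5.34% and 7.85% of all genes. The rise (0.21) was lost without LacZ replicate 1 (0.20), 2 (0.20) or 3 (0.23) and without K815Q replicate 1 (0.15) or 2 (0.19). Cyp1b1 was at 65.0 to 69.7 CPM in WT, below the 94.2 to 122.3 CPM of the 9 other libraries. It fell by 0.54 in WT against LacZ (log2 fold change, SE 0.0588, edgeR adjusted p 5.69e-06). From WT to K815R it rose by 0.51 (SE 0.0590, edgeR adjusted p 7.62e-05), a call held in all 12 leave-one-library-out fits. Cyp1a1, another target, was at 1.09 ± 0.203 CPM in WT, 0.836 ± 0.114 in LacZ, 0.408 ± 0.127 in K815R and 1.14 ± 0.433 in the labelled-K815Q libraries (SD, n = 3), with 6 to 31 counts per library. It fell from WT to K815R (log2 fold change -1.381, edgeR adjusted p 0.0284), a call not made by DESeq2 (adjusted p 0.0625) and lost without WT replicate 1 or 3 or K815R replicate 1 or 3 (-1.37 to -1.23). Ahr itself was at 17.5 ± 2.12 CPM in WT, 20.3 ± 2.18 in LacZ, 16.4 ± 0.799 in K815R and 20.7 ± 1.62 in the labelled-K815Q libraries (SD, n = 3), and no difference from LacZ passed.

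Slc7a11 is shared with the ATF4 stress response. Of 19 tested genes of that response, 2 rose and 1 fell in WT (15.8%), 1 fell in K815R (5.26%), and 3 rose and 1 fell in the labelled-K815Q libraries (21.1%) against LacZ. The shares of all genes were 5.34%, 2.47% and 7.85%. The genes that rose in WT, named after their values were seen, were Chac1, a glutathione-degrading enzyme (log2 fold change 0.54, edgeR adjusted p 0.0292), and Phgdh, an enzyme of serine synthesis (0.29, edgeR adjusted p 0.00688). Chac1 was at 15.5 to 20.8 CPM in WT, 10.9 to 14.7 in LacZ, 14.2 to 18.2 in K815R and 15.9 to 20.1 in the labelled-K815Q libraries, and its call was lost without LacZ replicate 2 or 3, WT replicate 1 or 3, or K815R replicate 2 (0.44 to 0.54). Phgdh was at 55.6 to 60.1 CPM in WT, 44.0 to 48.6 in LacZ, 46.6 to 48.9 in K815R and 52.1 to 61.7 in the labelled-K815Q libraries. The WT call of Phgdh was lost without LacZ replicate 2 (0.24) or WT replicate 2 (0.25). Phgdh also fell from WT to K815R (-0.25, edgeR adjusted p 0.0369), a call lost without any 1 of the WT or K815R libraries (-0.27 to -0.21). The genes that rose in the labelled-K815Q libraries were Trib3 (0.45), Phgdh (0.29) and Atf4, and the Phgdh call was lost there without LacZ replicate 2 (0.25) or K815Q replicate 1 (0.24). The gene that fell each time was Eif2ak2, an interferon-inducible kinase (log2 fold changes -1.005, -0.85 and -1.12). The defining gene of the response, Atf4, was at 255 to 273 CPM in WT, 232 to 250 in LacZ, 251 to 266 in K815R and 270 to 292 in the labelled-K815Q libraries. Atf4 had its highest mean in the labelled-K815Q libraries (log2 fold change against LacZ 0.23, edgeR adjusted p 0.00550). Without K815Q replicate 1 the value was 0.20 and the adjusted p 0.0506. In WT, Atf4 was 0.15 above LacZ on the log2 scale (edgeR adjusted p 0.0877). The part of this response in the Slc7a11 values was not tested.

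The genes whose levels followed Nqo1 most closely over the 12 libraries were ranked by Pearson correlation of log2 CPM, as a description. They were Siglec10 (0.96), a sialic acid-binding lectin of leukocytes, Aldh1l2 (0.93), a mitochondrial folate enzyme that yields NADPH, Adsl (0.93), an enzyme of purine synthesis, Tmem43 (0.92), a nuclear membrane protein, and Nf2 (0.91), the tumour suppressor merlin. All 5 were highest in WT. The ranking itself favours such genes, since Nqo1 was high only in WT, so nothing is read from that place. In WT, Siglec10 stood at 7.24 to 7.60 CPM against 4.77 to 6.29 CPM elsewhere, and Aldh1l2 at 26.4 to 27.3 CPM against 20.7 to 23.1 CPM. Over the 9 libraries without WT the correlations with Nqo1 were 0.96, 0.31, 0.72, 0.47 and -0.43 in the same order.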

How the data were processed

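Gene expression was measured by RNA-seq in 12 libraries (4 groups of 3, grouped and numbered by their titles). The authors deposited raw counts of reads per gene. Trimmomatic 0.39, HISAT2 2.2.1, HTSeq 0.6.1, edgeR and the build Rnor_6.0 are named in the submitters' processing notes, and reads were single reads of 75 nt, per the labels. The strand setting is not given in the sources used here, so overlapping genes are uncertain. The 5 counter lines that name no gene held 11.7% to 12.9% (no feature), 25.6% to 26.9% (aligned to several places), 2.69% to 3.06% (not aligned) and 0.461% to 0.50% (ambiguous) of reads, and stayed out of library sizes and tests.

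Counts were scaled by TMM, filtered by filterByExpr (minimum count 10, minimum total 15) and fitted with edgeR 4.0.16 in R 4.3.3 (robust quasi-likelihood, 1 model of group means over 12 libraries). The Benjamini-Hochberg method adjusted p-values over all 14063 genes, and genes were called at an adjusted p under 0.05. Log2 CPM used a prior count of 2. A count of 3 equals 0.118 to 0.156 CPM. Replicate pairs differed beyond sampling noise (chi-square per degree of freedom 4.54 to 8.74). On simulated data, 79 of 100 genes changed by 0.5 and 99 of 100 changed by 1 on the log2 scale were called in K815Q against LacZ, with 10 calls among 13760 unchanged genes.

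The genes and lists were chosen with earlier results of these data known. Named genes were the members, 7 regulators, Kat6a, up to 3 called genes per list by lowest p, and the 5 genes most correlated with Nqo1 among those of at least 5 CPM whose symbol is not a clone name. Alternatives were RLE scaling, no filter, DESeq2 1.42.0, the replicate number as a block, fits of only the 6 libraries compared, and leaving out each library. Promoter sequences are RefSeq's for GRCr8, which is not the build of the counts.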

Additional observations from a re-analysis of the deposited data

How the results depend on the processing

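The calls of Slc7a11 (WT and K815R against WT), of Gclc (WT and the labelled-K815Q libraries) and of Gsr (WT) kept their side of the threshold under RLE scaling, without a filter, with DESeq2, with the replicate block and in fits of only the 6 libraries compared. Among the 8 genes other than Nqo1, the count of calls in the labelled-K815Q libraries against LacZ went from 1 to 2 with DESeq2 (Hmox1), and in K815R against WT from 1 to 2 without a filter (Gclc, adjusted p 0.0489 by edgeR). Leaving out each library gave 1 to 4 calls in WT against LacZ and 1 to 2 in K815R against WT, and the median over the 9 genes in the labelled-K815Q libraries against WT ran from 0.034 to 0.094. Nfe2l2 in K815R against WT, at -0.0035, turned to 3e-04 with RLE scaling, 0.0034 without a filter and 2e-04 with DESeq2. Other signs that turned when a library was left out belong to values that did not pass or were given without a test. In WT against LacZ these were Nfe2l2 (-0.016 to 0.05), Txnrd1 (-0.0726 to 0.0347). In K815R against LacZ these were Nfe2l2 (-0.0121 to 0.0488), Hmox1 (-0.24 to 0.0018), Gclm (-0.10 to 0.0168), Prdx1 (-0.0577 to 0.0606). In labelled K815Q against LacZ these were Slc7a11 (-0.045 to 0.14), Gclm (-0.0782 to 0.0401), Gsr (-0.0936 to 0.0089), Prdx1 (-0.0592 to 0.0002). In K815R against WT these were Nfe2l2 (-0.0406 to 0.0366). In K815R against labelled K815Q these were Gclm (-0.0534 to 0.0163), Gsr (-0.0756 to 0.027), Prdx1 (-0.0267 to 0.0916). Of the values given without a test, Nqo1 in labelled K815Q against LacZ ran from -0.061 to 0.0794 and was below 0 without a filter, and Gclc in labelled K815Q against WT ran from -0.0656 to 0.0358.

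The counts over all genes moved more. Without a filter they were 600 in K815R against LacZ (348 as reported), 553 in K815R against WT (309), 307 in K815R against labelled K815Q (51) and 423 in labelled K815Q against WT (151). In K815R against labelled K815Q they were 105 with DESeq2, 86 with the replicate block and 85 in a fit of the 6 libraries. The block gave 232 in labelled K815Q against WT. Leaving out each library gave 378 to 839, 173 to 364, 360 to 1318, 124 to 338, 11 to 98 and 50 to 218 for LacZ as the control of WT, of K815R and of labelled K815Q, then for K815R against WT, K815R against labelled K815Q and labelled K815Q against WT. Over the 168 genes of the lists, calls ran in that order from 5 to 11, 3 to 5, 4 to 21, 1 to 6, 0 to 3 and 2 to 4. Without a filter the lists gave 24 calls in labelled K815Q against LacZ (15 as reported), 9 in K815R against WT (5) and 9 in K815R against labelled K815Q (1). With DESeq2 they gave 3 and 2 in these last comparisons, and with the block 3 in the last. In the check of pairing, same-numbered libraries had r from -0.13 to 0.12 over 18 pairs, 1 of them over 0.1. Pairs with other numbers had r from -0.13 to 0.145, and 5 of 12 libraries correlated best with their own number. Same-numbered pairs with LacZ had r from -0.13 to 0.028, and those among WT, K815R and labelled K815Q from 0 to 0.12. The check thus does not settle whether the numbers pair the libraries. The block changed no call among the 9 genes. Each group had 3 libraries, which limits the precision of every value.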
